A study of Mus musculus with 4 samples.

Results

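The transcripts described here code for subunits of the mitochondrial oxidative phosphorylation system, measured in cultured mammary fibroblasts with and without the transcription factor Ets2. Members were genes whose symbol begins with Ndufa, Ndufb, Ndufc, Ndufs or Ndufv (complex I), Uqcr (complex III), Cox4 to Cox8 (complex IV) or Atp5 (ATP synthase), together with Sdha, Sdhb, Sdhc and Sdhd (complex II). The rule found 84 genes, represented by 156 probe sets, among 12394 genes on the array. A probe set is a group of short probes that report on 1 transcript, and each gene was represented by its brightest probe set. Of the 84 members, 82 reached a log2 level of 4.63 on at least 1 array and were kept, as were 8687 genes in all. Cox4i2 and Cox8c stayed under that level on all 4 arrays. The symbol rule also took in 5 Ndufaf genes, which code for assembly factors of complex I and not for subunits, and they are described apart from the complexes.

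All 4 groups were FVB/N mice aged 9 weeks, with 1 array per group. The normal Ets2-present group had the genotype Ets2db/loxP, the normal Ets2-null group Fsp-cre;Ets2db/loxP, the PyMT Ets2-present group PyMT;Ets2db/loxP and the PyMT Ets2-null group PyMT;Fsp-cre;Ets2db/loxP. All groups thus carried Ets2db, a germline null allele, opposite a conditional loxP allele, so the Ets2-present fibroblasts themselves had a single working copy of the gene. The Fsp-cre transgene, which expresses Cre from a fibroblast promoter, was present in the Ets2-null groups alone, and Cre and the loss of Ets2 cannot be told apart. PyMT is a viral oncogene expressed in the mammary epithelium, not in the fibroblasts, which were separated from the gland and grown in DMEM with 10% FBS. There were no replicates, so the differences given below carry no error and no p-value.

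Oxidative phosphorylation makes most of the ATP of many resting tissues. Complexes I and II pass electrons from NADH and succinate to ubiquinone, complex III passes them on to cytochrome c, and complex IV hands them to oxygen, while complexes I, III and IV pump protons across the inner membrane. ATP synthase lets the protons flow back and makes ATP. Most subunits are encoded in the nucleus, as all the members here are, and must be assembled with a small set encoded in mitochondrial DNA. Fibroblasts rely on this system to a varying degree, and the balance between it and glycolysis is much studied in tumor stroma.

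Values are log2 levels, and differences are on the same log2 scale, where 1 is 2-fold. In what follows, 4 values of a gene are given with the normal pair first (Ets2-present, then Ets2-null) and the PyMT pair after it in the same order. The PyMT Ets2-null array stood apart from the other arrays in its controls. Its spiked bacterial transcripts were brighter by 0.53 to 0.79 and its 18S rRNA probe sets by 1.47 to 1.69, and its median over all probe sets was 5.63 against 5.72 to 5.74. The part of this in the results was not tested. The 2 comparisons that use this array, of PyMT Ets2-null with PyMT Ets2-present and with normal Ets2-null fibroblasts, share it and are not separate evidence. Ets2 itself read 11.86, 11.89, 11.21 and 11.22, with no loss in the Ets2-null arrays. Whether its probe set lies inside the deleted part of the gene is not known here, so it does not check the labels.

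The cells had the markers of fibroblasts. All 12 fibroblast markers, among them Col1a1 and Vim, were kept and above the filter level on every array, with median levels of 11.56 to 12.26. They were not all level between arrays. Lum read 9.26, 11.62, 6.73 and 5.82, Dcn 11.86, 12.48, 10.76 and 10.07, and Thy1 9.24, 9.44, 8.79 and 7.54. Fap read 6.54, 5.55, 7.67 and 5.3. In the Ets2 comparison of PyMT fibroblasts 4 of the 12 were lower and 2 higher by at least 0.5, where 19.7% of all genes were lower and 19.7% higher. The 4 lower ones are those just given. The 2 higher ones were Pdgfra (11.82, 11.94, 10.18 and 11.59) and Pdgfrb (10.07, 9.94, 10.39 and 10.95). By sign 8 of the 12 were higher in that comparison, with a median difference of 0.28. Of the mammary epithelial markers 8 to 10 of 12 were under the filter level on each array, of the endothelial markers 6 to 8 of 8 and of the skeletal muscle markers 6 to 7 of 8. Of the 5 epithelial markers kept, Krt18 (8.05, 6.72, 4.23 and 4.49) and Krt19 (4.98, 4.38, 7.36 and 7.21) differed between arrays. Krt5 read 4.77, 4.79, 5.53 and 5.24. Epcam (4.15, 4.07, 3.67 and 5.1) and Krt14 (2.83, 3.54, 2.42 and 4.85) passed the filter on the PyMT Ets2-null array alone. The filter thus set that these 2 markers were highest there. The macrophage markers had 8 of 10 genes kept, with summed linear levels of 544, 500.2, 1362 and 910.3. Of these 8, 7 were lower by at least 0.5 in PyMT Ets2-null than in PyMT Ets2-present fibroblasts, where 19.7% of all genes kept were. The adipocyte markers, 3 of 8 kept, summed to 2884, 2641, 4168 and 5214, but the 3 did not share a direction within PyMT. Pparg read 4.84, 4.75, 7.8 and 6.37, Fabp4 7.64, 6.82, 9.96 and 9.99, and Lpl 11.36, 11.26, 11.5 and 11.99. More cells of a type and more RNA per cell cannot be told apart in bulk RNA. The part of other cell types in the subunit levels was therefore not tested.

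Across the 82 kept members the arrays were close in level, with median levels of 10.21, 10.22, 10.22 and 10.03. The PyMT Ets2-null array nonetheless held the lowest of the 4 values for 54 of the 82 members, against 9, 7 and 12 members for the other arrays. Over all genes kept, 32.9% had their lowest value on that array, while 35.0% had their highest there, and only 11 members did. The normal Ets2-null array held the highest value for 41 members, where 22.1% of all genes had theirs.

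**Figure D1:**
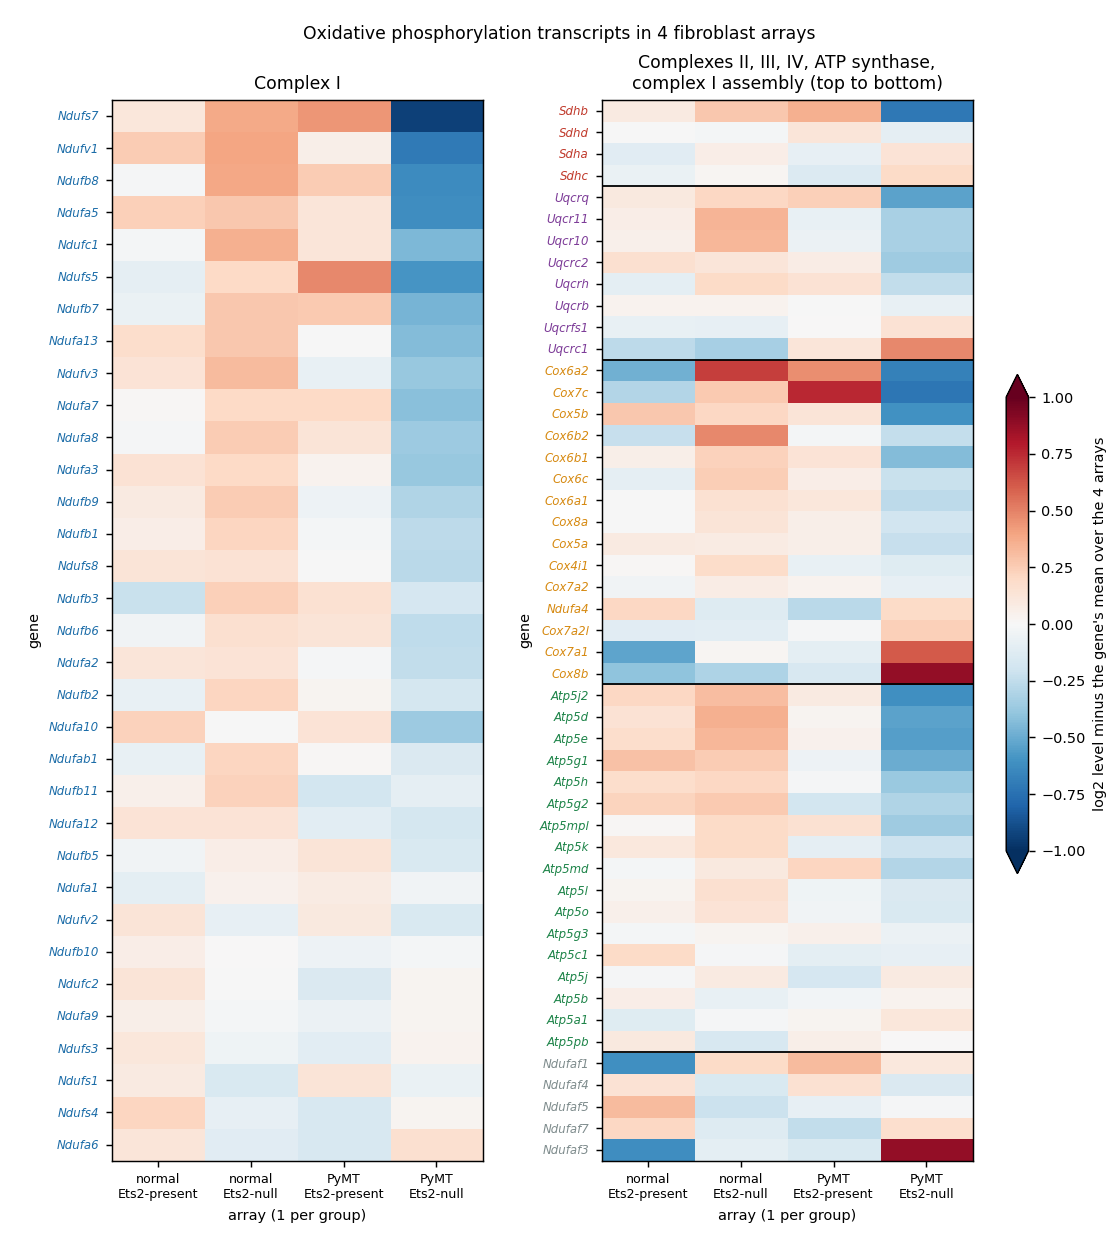
Each row is 1 kept member, grouped by complex with black lines between groups on the right, and each column is 1 array. Colour is the log2 level minus the mean of that gene over the 4 arrays. The PyMT Ets2-null column is blue for most subunits, and it was the lowest array for 54 of 82 members.

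The first comparison asked what differs between fibroblasts with and without Ets2 when the neighbouring epithelium carries PyMT. In PyMT Ets2-null fibroblasts 60 of the 82 members were lower than in PyMT Ets2-present fibroblasts (73.2%), where 48.7% of all genes kept were. The median difference of the members was -0.25, with the middle of the distribution between -0.48 and 0.02, and that of all genes 0.02. Large differences were few. Lower by at least 0.5 were 20 members (24.4%), close to the 19.7% of all genes, and higher by at least 0.5 only 3 (3.66%), against 19.7%. The members at least 2-fold apart were 7 (8.54%), against 15.4% of all genes. Among them Cox6a2, Ndufs5 and Cox8b passed the filter only on arrays where they were high. They were counted in the other comparisons as well. With each array centred on its median, 13 members were lower by at least 0.5 and the median of the members was -0.14, where that of all genes moved to 0.13. The 20 lower members came from every complex, with 9 in complex I, 1 each in complexes II and III, 4 in complex IV and 5 in ATP synthase.

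The subunits were also lower in PyMT Ets2-null than in normal Ets2-null fibroblasts. Here 60 members were below 0 (73.2%; 47.5% of all genes), with a median of -0.37 against 0.05 for all genes. There were 29 members lower by at least 0.5 (35.4%; 24.2% of all genes) and 4 higher by as much (4.88%; 24.7%), and 5 were at least 2-fold apart (6.1%; 20.9%). In both comparisons with the PyMT Ets2-null array, 18 members were lower by at least 0.5 (22.0%), as were 12.2% of all genes.

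The comparisons without that array showed no such shift. In normal fibroblasts only 23 members were lower in the Ets2-null culture (28.0%; 52.7% of all genes), and 59 were higher. The median over all 82 was 0.10, where all genes had -0.02. A single member, Ndufaf5, was lower by at least 0.5 (1.22%; 10.5%), 6 were higher by as much (7.32%; 9.96%) and 1 was at least 2-fold apart (1.22%; 5.42%). Between PyMT and normal fibroblasts that both had Ets2, 43 members were below 0 (52.4%; 50.4%) and the median was -0.04 against -0.01 for all genes. No member was lower by at least 0.5, where 17.3% of all genes were. The 4 higher by at least 0.5 (4.88%; 16.4%) included 1 at least 2-fold apart (1.22%; 11.6%).

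**Figure D2:**
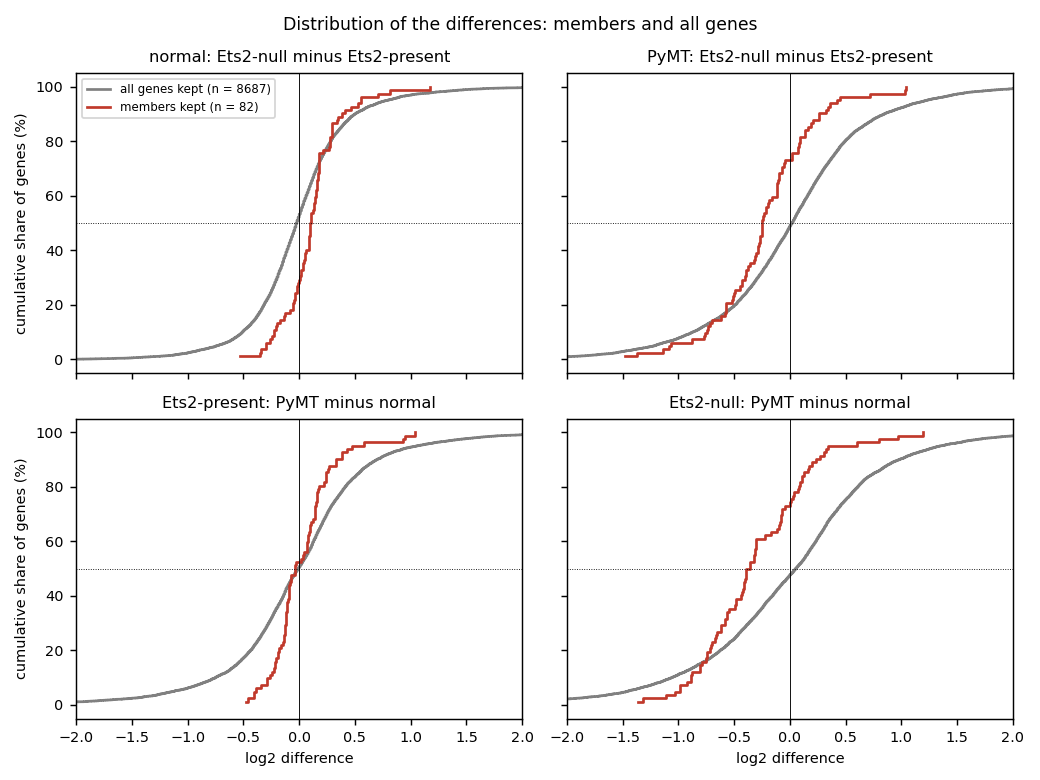
Cumulative share of genes (y axis, %) at or below each log2 difference (x axis, drawn from -2 to 2) for the 82 members in red and all 8687 genes kept in grey, in the 4 comparisons. From -0.5 upward the members' curve lies to the left of all genes in the 2 comparisons with the PyMT Ets2-null array, and in all panels it is steeper. At -1 the members' share is the smaller one in both, with 5 members and 675 genes for Ets2 in PyMT. For PyMT without Ets2 these were 4 members and 970 genes.

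By sign alone, the Ets2 difference thus ran in opposite directions in the 2 settings for many members. The normal differences were small, with a median of 0.10 and the middle of the distribution between -0.02 and 0.18. The SD of the disagreement between 2 probe sets of a gene was 0.30 there, and 30 of 43 such pairs shared a sign. Of the 82, 50 were higher without Ets2 in normal and lower without it in PyMT fibroblasts (61.0%), a pattern found in 23.7% of all genes, and 13 had the reverse (15.9%; 27.8%). When the Ets2 difference in normal fibroblasts was subtracted from that in PyMT fibroblasts, 60 members were below 0 (73.2%; 46.9% of all genes), with a median of -0.33 against 0.04. There were 30 members at -0.5 or below (36.6%; 22.9%), 5 at 0.5 or above (6.1%; 24.4%) and 8 at 1 or more in size (9.76%; 21.4%). This difference of differences was not tested, since each group had 1 array.

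Bright genes differ less between arrays than dim ones, and the subunits are bright. Among the 67 members with a mean level of at least 8, a cut chosen after the data were seen, the medians were 0.10 for Ets2 in normal and -0.25 for Ets2 in PyMT fibroblasts, -0.07 for PyMT with Ets2 and -0.36 without it. All 4023 genes that bright had medians of -0.03, 0.02, -0.01 and 0.06. In the Ets2 comparison of PyMT fibroblasts, 16 of these 67 members were lower by at least 0.5 (23.9%) and 0 higher, while of the 4023 genes 439 were lower (10.9%) and 409 higher (10.2%). Among genes this bright the members' share of lower calls thus lay further from that of all genes than it did without the cut.

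Complex I, the NADH dehydrogenase, had 33 members, of which 26 were lower in PyMT Ets2-null than in PyMT Ets2-present fibroblasts, with a median of -0.27. Its median was -0.41 for PyMT without Ets2, with 27 members below 0, and 0.13 for Ets2 in normal fibroblasts. The 6 core subunits had a median Ets2 difference in PyMT of -0.26 and the 27 accessory subunits, which surround and stabilise them, -0.28. Ndufs7, a core subunit that binds the last iron-sulfur cluster before ubiquinone, read 9.61, 9.88, 9.94 and 8.56. The PyMT Ets2-null array alone was low, by 2.59-fold against PyMT Ets2-present and 2.5-fold against normal Ets2-null. A second probe set of Ndufs7 read 7.05, 7.46, 7.84 and 6.48, with the same array low and an Ets2 difference in PyMT of -1.36 beside -1.37. The probe sets were further apart for PyMT without Ets2, at -0.98 beside -1.32, and for PyMT with Ets2, at 0.79 beside 0.33.

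Ndufv1, the core subunit that binds NADH and FMN, read 8.98, 9.12, 8.78 and 8.02. Its Ets2 difference in PyMT was -0.76, and -0.46 by its second probe set, and its PyMT difference without Ets2 was -1.11 and -0.91. Ndufb8, an accessory subunit of the membrane arm, read 9.50, 9.90, 9.76 and 8.88, again lowest in PyMT Ets2-null, by 1.84-fold within PyMT. Uneven members stood beside these. Ndufs5, another accessory subunit, read 4.56, 4.85, 5.13 and 4.06, near the filter level throughout and under it on 2 arrays. It passed only through the normal Ets2-null and PyMT Ets2-present arrays, so its difference of -1.08 had to be negative and rests on dim values. The core subunits Ndufs1 (9.24, 9.00, 9.28 and 9.08) and Ndufs3 (10.32, 10.16, 10.10 and 10.24) were not lowest in PyMT Ets2-null fibroblasts. Ndufa6, an accessory subunit, was 0.32 higher there than with Ets2.

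Complex II, succinate dehydrogenase, is the smallest complex, and its subunits differed in direction. Sdhb, its iron-sulfur subunit, read 7.68, 7.86, 7.94 and 6.87 and was 2.1-fold lower in PyMT Ets2-null than in PyMT Ets2-present fibroblasts. Sdha, the flavoprotein that oxidises succinate, read 10.18, 10.36, 10.21 and 10.43 and was highest on that array. The membrane anchors differed from each other too. Sdhc read 9.37, 9.46, 9.30 and 9.63, with an Ets2 difference in PyMT of 0.34, and Sdhd read 9.39, 9.37, 9.51 and 9.30, with one of -0.21. Second probe sets gave 0.10 for Sdha, 0.50 for Sdhc and -0.32 for Sdhd, and Sdhb had no second probe set. The median of the 4 genes in that comparison was 0.00. By their brightest probe sets, Sdha, Sdhc and Sdhd differed there by less than the SD of 0.35 between probe sets, so their order is not settled.

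**Figure D3:**
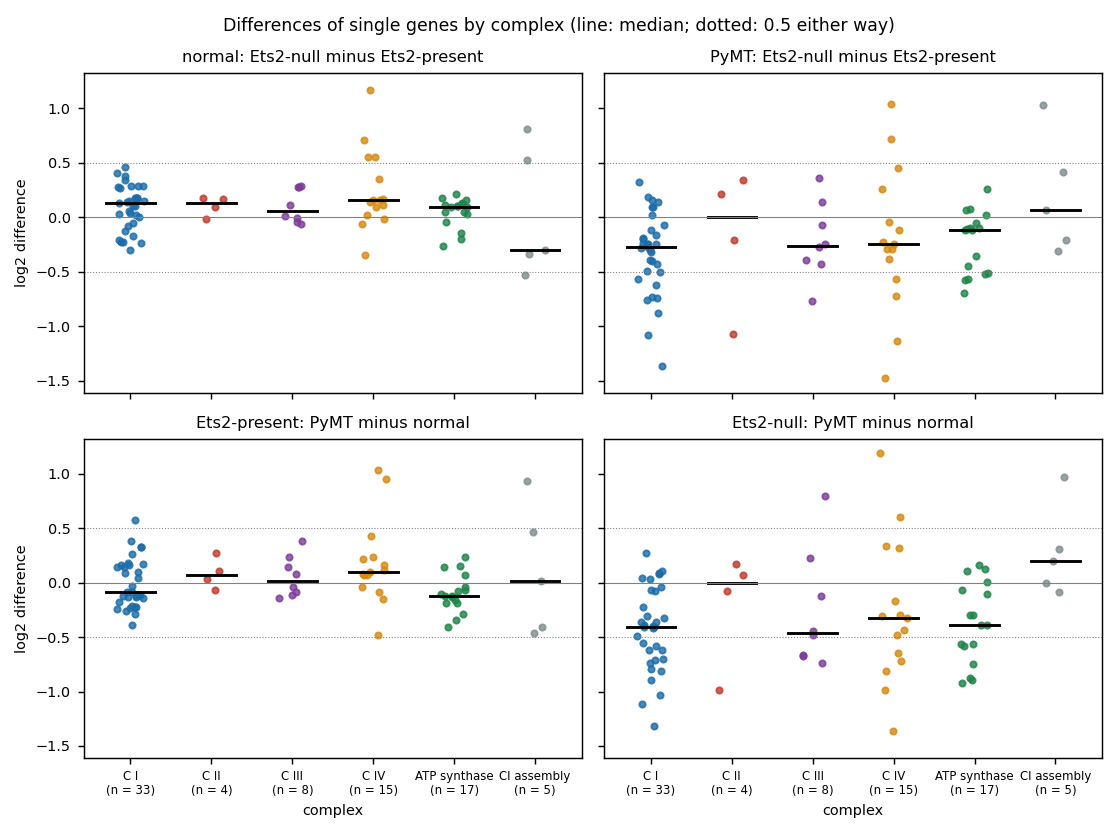
Each point is 1 kept member and its log2 difference (y axis) in 1 of the 4 comparisons, by complex (x axis, with the number of genes). Black lines are medians and dotted lines mark differences of 0.5 in either direction. In the Ets2 comparison of PyMT fibroblasts, complexes I, III and IV have medians of -0.27, -0.26 and -0.25, and complex II one of 0.00.

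Complex III, which passes electrons from ubiquinol to cytochrome c, had 8 members, with medians of -0.26 for Ets2 in PyMT and -0.46 for PyMT without Ets2. Uqcrq, a small ubiquinone-binding subunit, read 9.62, 9.73, 9.76 and 8.99, again with the PyMT Ets2-null array alone low. Uqcrc1, a core protein on the matrix side, read 7.03, 6.96, 7.41 and 7.77 and was highest on that array, 0.80 above normal Ets2-null. Uqcrfs1, the Rieske iron-sulfur protein, read 9.92, 9.91, 10.00 and 10.14. The partners of this complex were not members by the symbol rule. Cyc1, its cytochrome c1 subunit, read 8.53, 8.65, 8.70 and 7.42, a difference of -1.29 within PyMT, and Cycs, cytochrome c itself, read 11.09, 10.91, 11.08 and 10.65.

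Complex IV, cytochrome c oxidase, had 15 kept members, with a median of -0.25 for Ets2 in PyMT fibroblasts. It holds both widely expressed subunits and isoforms made mainly in muscle or testis, sorted here after the values were known. The 10 widely expressed subunits had a median of -0.29 in that comparison, with 9 of the 10 below 0. Cox7a2l was placed in neither set, and it was higher there, at 0.26. The 4 kept tissue-restricted isoforms ranged from -1.14 to 1.04, and some of them passed the filter only on the arrays where they were high, so they are given singly. Cox5b, a zinc-binding subunit, read 11.38, 11.32, 11.24 and 10.51, lowest in PyMT Ets2-null by 1.65-fold within PyMT, and a second probe set gave -0.53 beside -0.72. Cox6b1, which links the dimer on the intermembrane side, read 10.93, 11.10, 11.01 and 10.44. Its PyMT Ets2-null value was below all the others, and a second probe set gave -0.56 beside -0.57.

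Other widely expressed subunits differed less. Cox4i1, a regulatory subunit, read 11.11, 11.28, 11.02 and 10.98. Cox5a, its partner in early assembly, read 10.80, 10.79, 10.77 and 10.48, and Cox6a1 read 11.94, 12.10, 12.06 and 11.68. Each was lowest in PyMT Ets2-null, by 0.04 to 0.38 within PyMT. Cox7a2 (12.83, 12.94, 12.90 and 12.78) and Cox8a (10.21, 10.35, 10.28 and 10.03), small membrane-spanning subunits, were likewise lowest there, with differences within PyMT of -0.12 and -0.25. Ndufa4, named as a complex I subunit but a part of complex IV, ran the other way, at 10.22, 9.88, 9.74 and 10.20. Cox7a2l, in neither set, helps to join complexes III and IV into supercomplexes. It was highest in PyMT Ets2-null fibroblasts, at 10.73, 10.74, 10.83 and 11.08.

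Cox7c had the widest difference within PyMT of any member. This small subunit read 5.21, 5.76, 6.25 and 4.78, a 2.79-fold lower level in PyMT Ets2-null and a 2.06-fold higher one in PyMT Ets2-present than in normal Ets2-present fibroblasts. It rests on 1 kept probe set with low values, of a class that can bind several transcripts. A second probe set was not kept, since it stayed under the filter level, at 3.09, 3.55, 3.02 and 2.54. Cox6a2, the heart and skeletal muscle form of Cox6a, read 4.09, 5.26, 5.04 and 3.90. It passed the filter only through the normal Ets2-null and PyMT Ets2-present arrays, so it had to differ between arrays. Cox6b2, a testis form, read 6.27, 6.98, 6.48 and 6.26, with the arrays in the same order and smaller differences within PyMT. The other muscle forms were highest in PyMT Ets2-null fibroblasts. Cox7a1 read 4.35, 4.90, 4.78 and 5.49, and Cox8b 4.11, 4.20, 4.35 and 5.39, passing on the PyMT Ets2-null array alone. The summed skeletal muscle markers were 168, 123, 231 and 199, with 2 of 8 kept, beside these muscle isoforms. Those 2 ran in opposite directions within PyMT. Acta1 read 6.71, 5.6, 7.25 and 6.43, and Myog 3.19, 3.27, 2.84 and 5.33, passing on the PyMT Ets2-null array alone.

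**Figure D4:**
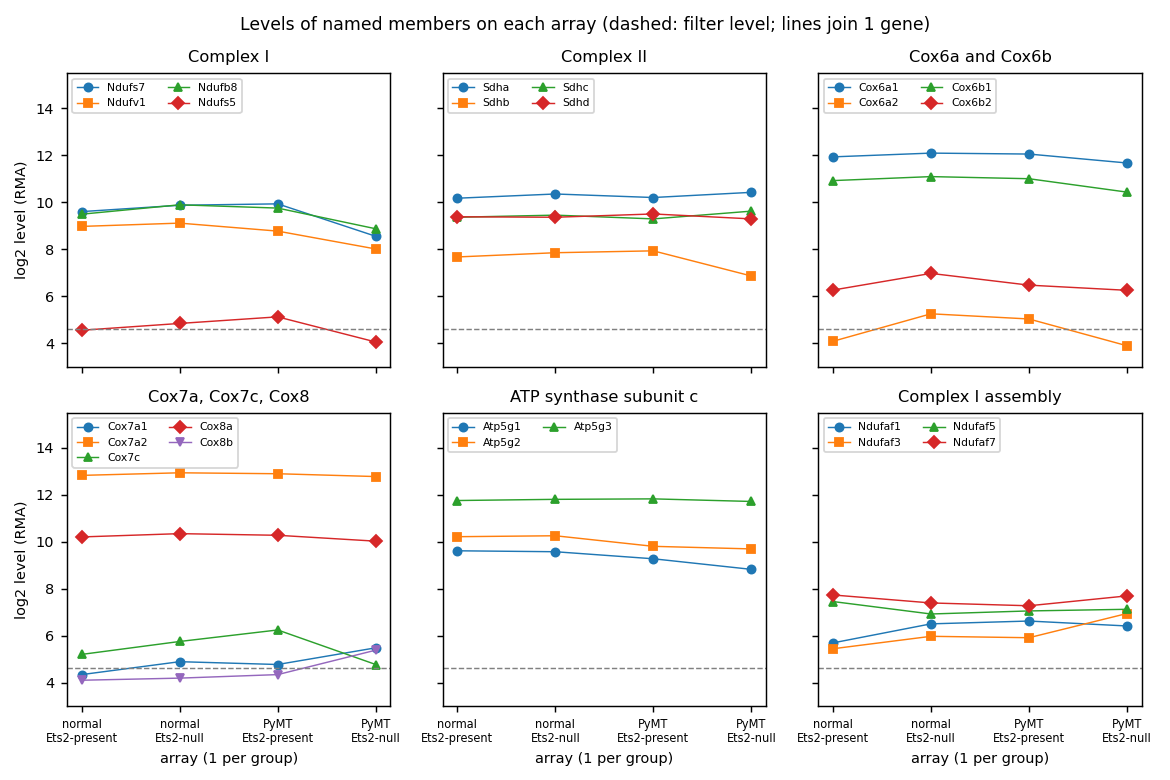
Log2 level (y axis) of the named members on each of the 4 arrays (x axis), 1 symbol per gene, with lines joining the values of a gene and a dashed line at the filter level of 4.63. Ndufs7 and Sdhb are lowest on the PyMT Ets2-null array, while Sdha, Cox7a2 and Atp5g3 are nearly level, and Ndufs5, Cox6a2, Cox7a1 and Cox8b cross the filter level.

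ATP synthase had 17 members, with medians of -0.12 for Ets2 in PyMT and -0.39 for PyMT without Ets2. The large subunits of its catalytic head were level. Atp5a1 (alpha) read 12.07, 12.18, 12.22 and 12.31, and Atp5b (beta), which holds the catalytic sites, 11.69, 11.55, 11.60 and 11.66. Atp5c1 (gamma), in the central stalk, read 11.36, 11.16, 11.07 and 11.09, level within PyMT. The 5 subunits of the head and central stalk had a median of 0.02 for Ets2 in PyMT, with 2 below 0. Those 2, the small subunits of the stalk, were lower in PyMT Ets2-null fibroblasts. Atp5d (delta) read 10.94, 11.15, 10.82 and 10.26, and Atp5e (epsilon) 11.29, 11.45, 11.16 and 10.57, each lowest on that array, by 1.48-fold and 1.5-fold within PyMT. A second probe set of Atp5d gave -0.22 beside -0.57. The 5 other small membrane subunits had a median of -0.51 and were all below 0, Atp5j2 (subunit f) at 11.38, 11.48, 11.26 and 10.56 among them, where the 4 peripheral stalk subunits had one of -0.09.

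Subunit c, which forms the rotating ring in the membrane, is coded by 3 genes that give the same mature protein. Atp5g1 read 9.62, 9.58, 9.28 and 8.83, Atp5g2 10.22, 10.26, 9.81 and 9.70, and Atp5g3 11.76, 11.81, 11.83 and 11.72. Atp5g1 and Atp5g2 were lower in both PyMT arrays than in both normal arrays, and Atp5g3 differed by at most 0.11 in the 4 comparisons. For Atp5g2 a dimmer second probe set read 4.93, 4.78, 5.27 and 5.05, with PyMT above normal, so the probe sets disagree on its direction.

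The 5 complex I assembly factors had a median Ets2 difference in PyMT of 0.07, and 0.20 for PyMT without Ets2. Ndufaf3 read 5.45, 5.98, 5.92 and 6.95 and was 2.04-fold higher in PyMT Ets2-null than in PyMT Ets2-present fibroblasts. Ndufaf1 read 5.70, 6.51, 6.63 and 6.42, with the normal Ets2-present array low. Ndufaf5 (7.46, 6.93, 7.06 and 7.13) and Ndufaf7 (7.74, 7.40, 7.28 and 7.70) were highest in normal Ets2-present fibroblasts.

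The probes themselves gave a measure of error. In 43 members with 2 kept probe sets, the SD of the disagreement between both was 0.30 for Ets2 in normal, 0.35 for Ets2 in PyMT, 0.28 for PyMT with Ets2 and 0.31 for PyMT without it, so single members with smaller differences cannot be ordered. It covers probe error and not the spread between animals or cultures. The second probe sets had medians of 0.12, -0.23, 0.07 and -0.35 in these comparisons, beside 0.09, -0.27, -0.04 and -0.39 for the brightest of the same genes. In the Ets2 comparison of normal fibroblasts 30 of the 43 pairs had the same sign, and in that of PyMT fibroblasts 39. The widest disagreements there, picked after the values were seen, were Ndufa10, at -0.50 and 1.07, and Ndufs8, at -0.27 and -1.19.

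**Figure D5:**
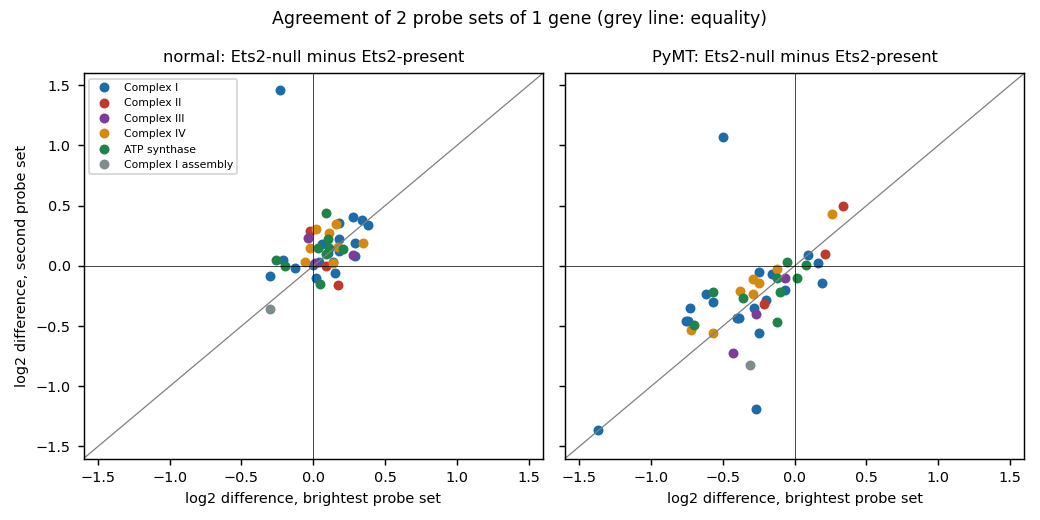
Log2 Ets2 difference of a gene by its brightest probe set (x axis) and by its second probe set (y axis), in normal (left) and PyMT (right) fibroblasts, for the 43 members with 2 kept probe sets, coloured by complex. The grey line is equality. In PyMT fibroblasts most points lie in the lower left, and 39 pairs share a sign, against 30 in normal fibroblasts.

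Other mitochondrial genes did not all follow the subunits. The array had 1 probe set for a subunit encoded in mitochondrial DNA, ND5 of complex I, which read 12.27, 12.10, 12.16 and 12.51 and was highest in PyMT Ets2-null fibroblasts. The 74 mitochondrial ribosomal proteins, which translate such subunits, had a median of -0.29 for Ets2 in PyMT, with 17 lower and 4 higher by at least 0.5, where 19.7% of all genes were lower and 19.7% higher, and of -0.46 for PyMT without Ets2. The 44 kept cytosolic ribosomal proteins had medians of -0.15 and -0.25. Of the 33 kept assembly factors of the respiratory complexes, a list that includes the Ndufaf genes, 6 were lower and 7 higher in the Ets2 comparison of PyMT fibroblasts, near those shares, with a median of -0.09. The 17 tricarboxylic acid cycle enzymes had a median of 0.01, with 2 lower and 2 higher, and the 15 carriers and outer membrane proteins one of -0.13.

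Regulators of mitochondrial biogenesis, 12 kept of 14, had a median of -0.35 for Ets2 in PyMT. By at least 0.5, 3 were lower and 1 higher, where 19.7% of all genes were lower and 19.7% higher. By sign 9 of the 12 were lower and 3 higher. Polrmt, the mitochondrial RNA polymerase, read 6.19, 6.92, 6.70 and 5.19, lowest in PyMT Ets2-null fibroblasts. Esrra, a nuclear receptor that activates respiratory genes, read 4.08, 4.81, 4.81 and 3.92, dim on all arrays. Tfb1m went the other way, at 6.35, 6.18, 6.62 and 7.31, and Tfam, at 8.14, 8.0, 7.71 and 8.14, was also higher within PyMT. Of the 22 glycolytic enzymes and their regulators, 8 were higher and 1 lower by at least 0.5 in PyMT Ets2-null than in PyMT Ets2-present fibroblasts. Of all genes, 19.7% were higher and 19.7% lower. The glycolytic genes had a median of 0.32 in this comparison. Their median was 0.01 for PyMT without Ets2, with 11 below and 11 above 0, and -0.35 for PyMT with Ets2, so they did not mirror the subunits across comparisons. Pdk1, a kinase that holds pyruvate back from mitochondria, read 9.54, 9.35, 7.77 and 9.76, so that here the PyMT Ets2-present array was the low one. Pfkl, the liver form of phosphofructokinase, read 8.08, 7.38, 7.08 and 8.52. Genes of these lists other than those in the rule for named members were picked after their values were seen.

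The promoters of the members were searched for short motifs, since Ets2 belongs to a family whose factors bind around the core GGAA. RefSeq windows of build GRCm38.p6, from 250 bases before to 50 after each start, were at hand for 70 of the 84 members, as 75 windows among 32851 in all. An ETS motif (CCGGAAG, either strand) was in the windows of 18 members and in 24.0% of member windows, against 8.86% of all windows. The NRF1 motif (GCGCANGCG) was found in 19 members and in 26.7%, against 6.25%, the YY1 motif (AAGATGGCG) in 8.0% against 1.4%, and the ERR motif (TCAAGGTCA) in 2.67% against 0.42%. CCAAT was in 38.7% against 37.4%, and TATAAA in 10.7% against 13.6%. Member windows had a median GC content of 58.7% and all windows 52.7%, and ETS, NRF1 and YY1 motifs hold C and G. A match is not a bound site.

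The windows below are those of the members named above with the largest Ets2 difference in PyMT in complexes I and II, and of Sdha, which did not share it. Capitals mark matches to the ETS, NRF1, YY1 or ERR motif. Each is written 5′ to 3′ along the gene. Ndufs7 lies at chr10:80249199-80249498 on the plus strand, Sdhb at chr4:140961021-140961320 on the plus strand and Sdha at chr13:74350191-74350490 on the minus strand.
Ndufs7: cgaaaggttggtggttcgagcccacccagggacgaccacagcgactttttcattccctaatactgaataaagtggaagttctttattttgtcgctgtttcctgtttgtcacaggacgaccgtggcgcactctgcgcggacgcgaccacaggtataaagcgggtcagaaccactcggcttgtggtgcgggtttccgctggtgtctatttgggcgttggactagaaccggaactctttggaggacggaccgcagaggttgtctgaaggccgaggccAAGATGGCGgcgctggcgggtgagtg
Sdhb: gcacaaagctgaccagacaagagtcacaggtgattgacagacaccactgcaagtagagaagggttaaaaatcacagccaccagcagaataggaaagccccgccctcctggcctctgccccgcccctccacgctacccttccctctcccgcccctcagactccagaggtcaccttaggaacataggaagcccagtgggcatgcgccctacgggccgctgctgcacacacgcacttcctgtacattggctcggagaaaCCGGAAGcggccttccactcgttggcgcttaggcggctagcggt
Sdha: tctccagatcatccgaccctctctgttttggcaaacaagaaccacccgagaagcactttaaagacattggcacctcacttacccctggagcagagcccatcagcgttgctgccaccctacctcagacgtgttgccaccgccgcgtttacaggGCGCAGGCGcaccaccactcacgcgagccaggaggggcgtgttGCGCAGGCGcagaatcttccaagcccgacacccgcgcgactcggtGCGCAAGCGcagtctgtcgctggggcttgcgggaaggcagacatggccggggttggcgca
Ndufs7 held 1 YY1 match past its start, Sdhb 1 ETS match past its start and Sdha 3 NRF1 matches before it. The 18 members with an ETS motif had a median Ets2 difference of -0.32 in PyMT and 0.15 in normal fibroblasts, and the 52 members with a window but no such motif -0.18 and 0.09. With an NRF1 motif the median in PyMT was -0.12 (19 members) and without it -0.27 (51 members). These gaps were not tested.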

How the data were processed

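RNA of cultured mammary fibroblasts from 4 groups of mice was hybridised to 4 Affymetrix mouse arrays, 1 per group, and groups were taken from the sample labels. The deposited values are log2 levels per probe set, which the authors made by RMA (version not given in the sources used here). RMA corrects the background, normalizes between arrays and summarizes the probes of a set. Quantile steps of this kind hide a shift common to all genes, and which other arrays were processed together was not stated. The number of arrays limits the precision. Of 22690 probe sets, 20393 had 1 gene in the platform annotation, 691 had several and 1606 none; the members were matched to RefSeq by Entrez ID, all 84 of them with the same symbol.

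The probe set with the highest mean over the arrays stood for its gene. The filter level of 4.63 was the 40th percentile over the whole table and had to be reached on 1 array. Differences were taken between arrays and counted at 0.5 and 1 (2-fold) on the log2 scale, with no test, and medians and counts are given beside those of all genes kept. Named members were the 3 lowest and 3 highest in each of the 4 comparisons, all at least 2-fold apart, complex II and the isoform families Cox4i, Cox5, Cox6a, Cox6b, Cox7a, Cox8 and subunit c of ATP synthase; other members were added as examples after their values were seen. The members and lists were chosen with earlier results of these data known. Alternatives changed the probe set, filter or normalization (limma 3.58.1 in R 4.3.3), and scripts ran in Python 3.11.15 with pandas 2.3.3 after a test on simulated data.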

Additional observations from a re-analysis of the deposited data

Results flagged for a closer look

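The median Ets2 difference over the 82 members was 0.10 in normal and -0.25 in PyMT fibroblasts, so the differences between the Ets2-null and the Ets2-present array had opposite signs in the 2 settings. Cox6a2, the muscle form of Cox6a, had an Ets2 difference of 1.17 in normal and -1.14 in PyMT fibroblasts, with 2 of its 4 values under the filter level. It passed the filter only through the normal Ets2-null and PyMT Ets2-present arrays, so these opposite signs were set by the filter. Cox7c, a small subunit of complex IV, had 0.55 in normal and -1.48 in PyMT fibroblasts, from its only kept probe set. These differences between the settings were not tested, since there was 1 array per group.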

How the results depend on the processing

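With 1 array per group, none of these results has a replicate spread, and no array could be left out. No paired analysis was possible because each group had 1 array and no replicate numbers. Over the alternatives tried, the median over the members kept its sign for Ets2 in normal (0.10 to 0.15), Ets2 in PyMT (-0.25 to -0.14), PyMT without Ets2 (-0.39 to -0.29) and the difference of the Ets2 differences (-0.40 to -0.25), while that for PyMT with Ets2 ran from -0.07 to 0.03. The widest move came with each array centred on its median, where Ets2 in PyMT had a median of -0.14 with 13 members lower by at least 0.5 instead of 20, and where the median of all genes moved to 0.13. The count of members lower by at least 0.5 for Ets2 in normal, 1 as reported, was 2 with no filter on low values and 0 with cyclic loess, without the Ndufaf genes, with quantile normalization and with only genes of mean level 8 or more, the last 2 added after the data were seen. The count for PyMT with Ets2, 0 as reported, was 1 with no filter. Atp5g2 reversed by its second probe set, from -0.56 to 0.26 for PyMT without Ets2. The causes were not tested. Probe sets near the filter level, such as those of Ndufs5 and Cox6a2, are limited by their low signal.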
